A study of Drosophila melanogaster with 8 samples.

Results

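FOXO hearts were set against control hearts at 1 week of adult age on 4 Affymetrix GeneChip arrays of the 8 in the series. The members were chosen by title: FOXO hearts are GMH5 crossed to FOXO (2 arrays), and control hearts are GMH5 crossed to yw (2 arrays). All the flies are *Drosophila melanogaster*, labelled female, and all carry GMH5, a Gal4 line used to drive transgenes in heart cells. The same crosses at 5 weeks (2 arrays each) served as a second, separate comparison. Hearts were dissected and freed of fat and pericardial cells by suction, and their RNA was amplified. The labels name neither the number of hearts per array nor the FOXO transgene. Of 18952 probe sets, the 18769 that are not array controls were tested, and 11982 genes with 1 symbol were each represented by their brightest probe set.

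FOXO is the transcription factor held back by insulin signalling. When insulin signalling is low, FOXO enters the nucleus and switches on genes for stress resistance, restrained growth and protein turnover. In the fly heart, insulin signalling and FOXO are known to affect how heart function declines with age. Damaged proteins are refolded by chaperones or removed by the proteasome and autophagy.

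The values are the authors' normalised log2 signals, so a difference of 1 is a 2-fold difference in signal. A change was called where the Benjamini-Hochberg adjusted p of limma was under 0.05 over all 18769 probe sets. Because the FOXO arrays differ widely, each was also tested alone against both control arrays. A lone array was then assumed to vary like the other groups. The FOXO pair at 1 week varied more than that. The SD of replicate 1 minus replicate 2 was 0.83 there, against 0.22 to 0.30 in the other groups. This spread is left out of the tests on a lone array, so they can call too readily. Both of these tests use the same control arrays, so they are not independent of each other. Array medians lay between 6.07 and 6.09 for FOXO and between 6.20 and 6.22 for control at 1 week. The FOXO pair correlated at 0.963 across probe sets and differed by more than 1 at 2235 of them (11.9%), against 0.997 and 17 (0.0906%) for the control pair. The labels do not say that replicates are separate flies, so p-values measure only how far these arrays lie apart, which may be a technical spread.

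The 4 arrays differ in transcripts of sex and of the germline, and 3 of them go against their female label in at least 1 respect. FOXO replicate 2 and both control arrays lacked the high female-specific signals of FOXO replicate 1. The control arrays also stood higher for late spermatogenesis genes. Fad2, the desaturase that makes female pheromones, read 13.22 on FOXO replicate 1 and 4.88 on FOXO replicate 2, against 4.20 and 4.41 on the control arrays. The yolk protein gene Yp2 read 13.45 and 6.18 on the FOXO arrays, against 5.84 and 6.09 on the control arrays. All 5 female-specific genes were called higher on FOXO replicate 1 alone. On FOXO replicate 2 alone Yp1 (-1.89) and Yp3 (-1.09) were called lower than in control and eloF, an elongase of female pheromone synthesis, higher (1.00), while Fad2 and Yp2 were not called. The 32 measured transcripts of oocytes and nurse cells had a median of 10.64 and 5.33 on the FOXO arrays, against 4.95 and 4.94 on the control arrays. The 46 late spermatogenesis genes had medians of 4.83 and 5.12 on the FOXO arrays, against 7.63 and 7.50 on the control arrays. Here the control arrays stood together above both FOXO arrays. The 18 measured male accessory gland genes had medians of 4.21 and 4.83 in FOXO, against 5.71 and 5.18 in control. Marker lists of 3 other tissues had medians that lay closer together. For fat body and oenocytes they were 12.86 and 12.91 in FOXO, against 13.01 and 12.85 in control. For pericardial nephrocytes they were 11.61 and 11.87 in FOXO, against 11.68 and 11.77 in control. For hemocytes they were 10.37 and 10.84 in FOXO, against 10.86 and 10.53 in control. Of the 13 hemocyte markers, 12 lay below both control arrays on FOXO replicate 1 and 1 on replicate 2. Their median difference from control was -0.43 on replicate 1 and 0.19 on replicate 2, where all genes had -0.05 and 0.03. The 23 measured heart muscle genes, such as Mlc2 and bt, had high medians of 11.87 and 12.02 in FOXO, against 12.27 and 12.26 in control. Which part these other-tissue transcripts have in any single change below was not tested, and in such bulk samples fewer cells of a type and less RNA per cell cannot be told apart.

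**Figure D1:**
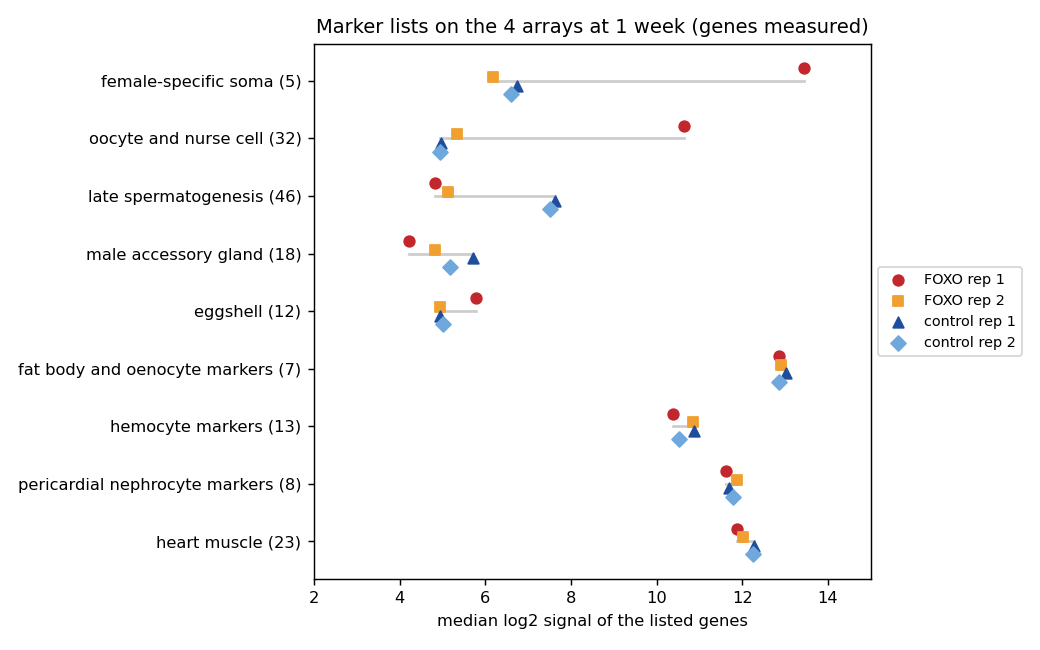
Median log2 signal of 9 marker lists (number of genes measured in brackets) on the 4 arrays at 1 week, 1 point per array. Female-specific and oocyte transcripts stood high on FOXO replicate 1 alone, and late spermatogenesis transcripts stood higher on both control arrays, near 7.6, than on both FOXO arrays, near 5.

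The foxo probe set did not pass the test. It read 10.46 and 10.87 on the FOXO arrays, against 10.68 and 10.75 on the control arrays, so that the groups overlap. The difference was -0.05 ± 0.17 (SE, adjusted p = 0.913), and on each replicate alone it was -0.26 and 0.15. The labels do not say which part of foxo the transgene carries, so this probe set does not check them.

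With both FOXO arrays, 68 genes were higher (0.568% of those tested) and 647 lower (5.4%). FOXO replicate 1 alone called 1972 genes higher (16.5%) and 2444 lower (20.4%), and FOXO replicate 2 alone called 206 higher (1.72%) and 696 lower (5.81%). Changes that held on each FOXO array taken alone, and with both together, numbered 56 higher (0.467%) and 605 lower (5.05%). Over probe sets, both arrays together called 0.464% higher and 3.87% lower, replicate 1 alone 13.2% and 15.4%, and replicate 2 alone 1.44% and 4.18%. On each array alone 102 probe sets were higher (0.543%) and 732 lower (3.9%), while 44 were called in opposite directions. The array medians were lower in FOXO than in control, and centring them adds 0.137 to every difference of group means. It turned the split of the calls to 160 higher and 622 lower with both arrays, against 87 and 726 as deposited, and to 249 and 642 on each array alone. For replicate 1 alone the split became 3098 higher and 2354 lower, and for replicate 2 alone 667 and 684. With control 5 weeks in place of control 1 week, an alternative added after seeing the data in which age differs too, 168 probe sets were higher and 513 lower on each FOXO array. Of those called against control 1 week, 82 of the 732 and 24 of the 102 were called there in the same direction. Against control 5 weeks, 0.895% of all probe sets were higher and 2.73% lower on each. The exact permutation test of 2 arrays against 2 for a single gene cannot go below p = 0.333.

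**Figure D2:**
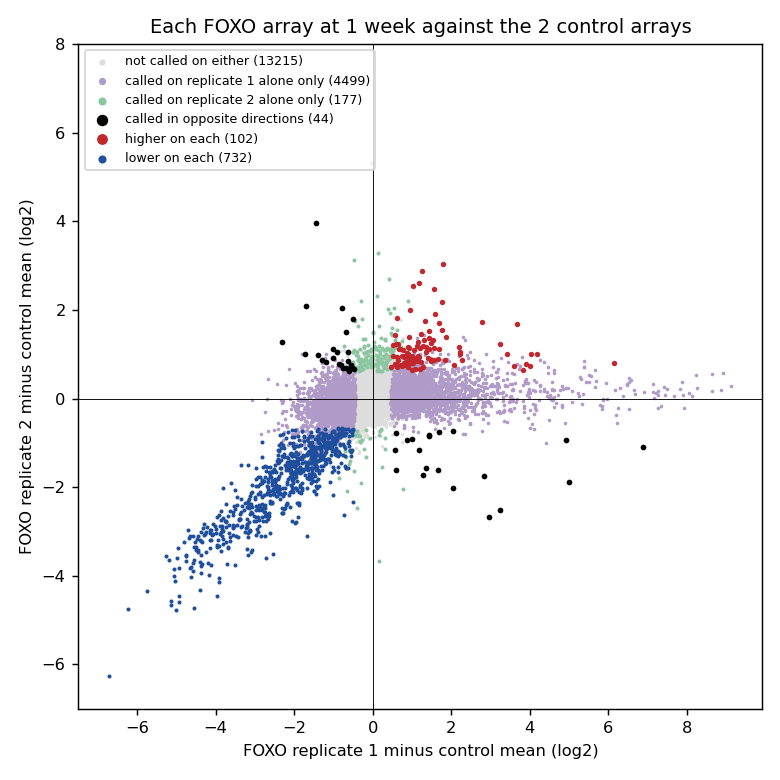
Difference from the control mean at 1 week (log2) on FOXO replicate 1 (horizontal) and FOXO replicate 2 (vertical) for every probe set, coloured by the calls on each array alone. The 732 probe sets lower on each lie along a diagonal at the lower left, while the 4499 called on replicate 1 alone only spread along the horizontal axis.

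The deepest falls that held on each FOXO array included transcripts known from sperm formation. Among genes of late spermatogenesis, 27 of 46 fell, on each replicate alone and with both together, and 0 rose; over all genes 5.05% fell by this rule. c-cup, which belongs to a family transcribed in developing spermatids, read 3.79 and 4.17 in FOXO hearts, against 7.99 and 7.85 in control hearts. Its log2 fold change was -3.94 ± 0.19 (adjusted p = 0.000195). Its relative hale fell by 3.63 ± 0.16 (adjusted p = 0.00016), with 5.01 and 4.79 in FOXO hearts and 8.55 and 8.51 in control hearts. Mst84Dc, a protein of the sperm tail, read 8.84 and 9.51 in FOXO hearts, against 12.16 and 12.30 in control hearts (-3.05 ± 0.22, adjusted p = 0.000647). w-cup was the member on which the FOXO arrays differed most among those named here, with 4.91 and 6.63, against 10.24 and 10.14 in control hearts.

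Genes that rank among the 12 deepest falls by the smaller of their changes on the FOXO arrays share this pattern. CG14294 fell by 6.22 on replicate 1 and by 4.75 on replicate 2, and CG12126 fell by 5.13 and by 4.67. fest, which acts in translation in spermatocytes, read 4.45 and 5.04 in FOXO hearts, against 9.06 and 9.07 in control hearts (-4.32 ± 0.28, adjusted p = 0.000453). CG4073, Pif2, CG44433, CG13700, CG17666, CG32161, CG31204, CG32106 and CG33125 had log2 fold changes between -4.84 and -4.09, each with its FOXO arrays below its control arrays. The 12 were chosen as called on each FOXO array alone, so this separation adds no support. All 12 also had a lower signal in control hearts at 5 weeks than at 1 week. Of the 605 genes lower on each FOXO array, 505 were lower by more than 1 in control hearts at 5 weeks than at 1 week. Over all 11982 genes, 1113 were more than 1 apart between these control groups in either direction. Both comparisons use the control arrays at 1 week, so they are not independent. For most of the genes that fell, the control arrays at 1 week stood above the control arrays at 5 weeks too. Copies of housekeeping genes that serve the male germline fell with them: Hsp60B, a mitochondrial chaperone of spermatids, read 5.34 and 5.71 in FOXO hearts, against 7.21 and 7.51 in control hearts (-1.83 ± 0.19, adjusted p = 0.00199). Atg8b, the autophagy gene copy active in testis, read 4.65 and 5.27 in FOXO hearts, against 6.72 and 6.66 in control hearts (-1.73 ± 0.22, adjusted p = 0.00574), a call lost without either control 1 week array.

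To set such genes apart in part, those whose control level at 5 weeks lay within 1 of that at 1 week were taken separately, 10869 genes in all. Of these, 47 were higher (0.432%) and 92 lower (0.846%) on each FOXO array alone and on both together. The cut left genes with a similar pattern among the falls. Of the 92, 30 were called higher in FOXO hearts at 5 weeks, 18 lower and 44 neither. CG31787 and COX4L, for example, had FOXO minus control of 4.27 and 3.92 at 5 weeks. Their control signal was lower at 5 weeks than at 1 week (-0.93 and -0.60). The division uses the control arrays at 1 week, which also enter the test, so it describes the genes and tests nothing.

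The 12 largest falls among them follow. CG13215 read 6.47 and 6.51 in FOXO hearts, against 9.61 and 9.69 in control hearts, a log2 fold change of -3.16 ± 0.16 (adjusted p = 0.000195). Listericin, an antibacterial protein of innate immunity, read 8.10 and 9.55 in FOXO hearts, against 11.52 and 11.71 in control hearts (-2.79 ± 0.42, adjusted p = 0.0108). In the order of protein-coding genes in RefSeq release 6, CG13215 and Listericin lie next to each other on chromosome arm 2R. The call for Listericin was lost without either control array.

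Ir76a, of the ionotropic receptor family, read 6.02 and 5.05 in FOXO hearts, against 8.59 and 8.52 in control hearts (-3.02 ± 0.31, adjusted p = 0.00212). Gr63a, part of the carbon dioxide receptor of the antenna, read 7.43 and 6.98 in FOXO hearts, against 9.29 and 9.37 in control hearts (-2.12 ± 0.17, adjusted p = 0.000927). ppk15, of the pickpocket family of sodium channels, read 4.90 and 5.38 in FOXO hearts, against 8.02 and 8.17 in control hearts (-2.96 ± 0.19, adjusted p = 0.000449). In each of these both FOXO arrays lay below both control arrays, and the FOXO arrays differed by less than 1. The genes were chosen as called on each FOXO array alone, so that separation from the control arrays adds no support. The accessory gland gene Acp63F also fell, with 5.37 and 7.09 in FOXO hearts, against 9.19 and 8.79 in control hearts (-2.76 ± 0.49, adjusted p = 0.0255). This call was lost without any 1 of the 6 arrays other than FOXO 1 week (largest adjusted p = 0.231), and it was 1 of 3 accessory gland genes of 18, with Acp26Ab and Acp53C14a, that fell on each replicate, where 5.05% of all genes did. The calls for Acp26Ab and Acp53C14a were also lost without any 1 of those 6 arrays, and with centred medians (largest adjusted p = 0.223 and 0.270 over all alternatives). CG11286 (-3.05 ± 0.16), CG18585 (-2.97 ± 0.15), CG31296, Dlip3, CG12209 and CG34232 (-2.12 ± 0.20) also fell (adjusted p 0.000195 to 0.00417).

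The rises were fewer and smaller. CG6034 read 7.14 and 8.40 in FOXO hearts, against 5.26 and 5.46 in control hearts, a log2 fold change of 2.41 ± 0.37 (adjusted p = 0.0129). CG33640 read 6.66 and 7.09 in FOXO hearts, against 5.24 and 4.57 in control hearts (1.97 ± 0.26, adjusted p = 0.00614). Its near neighbour on arm 2L, CG33642, with 1 protein-coding gene between them, read 5.37 and 5.59, against 4.34 and 3.92 (1.35 ± 0.28, adjusted p = 0.0492), a call lost under 9 of the alternatives. CG14621 was the rise with the narrowest error relative to its size among the 4 largest, with 10.22 and 10.54 in FOXO hearts, against 8.55 and 8.73 in control hearts (1.74 ± 0.17, adjusted p = 0.0019). That call and no other among the 12 largest rises held under every alternative tried.

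Among the other rises, Drsl4, a relative of the antifungal peptide drosomycin, read 10.18 and 11.09 in FOXO hearts, against 8.87 and 8.39 in control hearts (2.01 ± 0.32, adjusted p = 0.0159). BCL7-like, named for subunits of a chromatin remodelling complex, read 7.65 and 6.60 in FOXO hearts, against 4.89 and 4.85 in control hearts (2.26 ± 0.40, adjusted p = 0.0254). EbpII, a protein of the male ejaculatory bulb in flies, read 5.06 and 4.58 in FOXO hearts, against 3.20 and 3.20 in control hearts (1.62 ± 0.20, adjusted p = 0.00434). These 3 genes were chosen as called on each FOXO array alone, so that no FOXO array overlapped a control array adds no support. The calls for Drsl4 and BCL7-like were lost without any 1 of the 4 control arrays, and that for EbpII without control 1 week replicate 1. tw, an enzyme of protein O-mannosylation, rose by 1.31 ± 0.17 (adjusted p = 0.00505) and by 1.31 on each FOXO array alone. CG43759 (1.65 ± 0.18), CG14406 (1.54 ± 0.19), CG14062, chas, HisT (1.40 ± 0.15) and CG3823 (1.37 ± 0.14) rose too, with adjusted p between 0.0019 and 0.0221. The calls for CG6034 and CG14062 were lost without either control 1 week array, that for CG14406 without control 1 week replicate 1, and that for chas without any 1 of the 4 control arrays. On all 4 arrays EbpII, CG33642, CG14062, chas and tw read below the array median, where signals are dim.

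**Figure D3:**
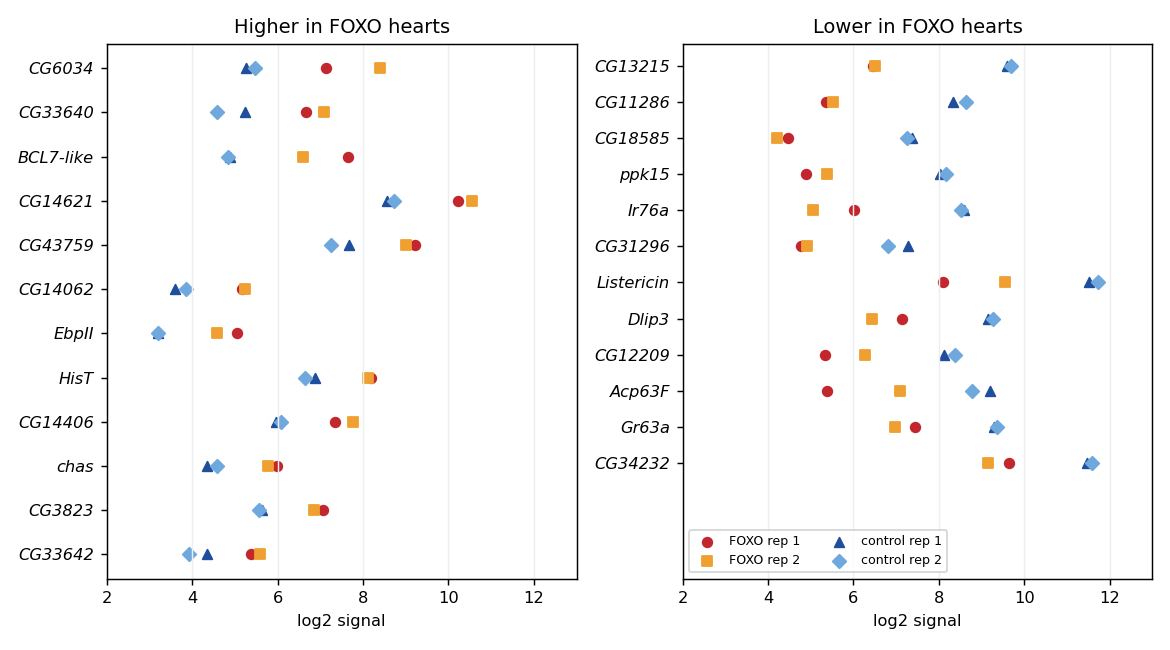
Log2 signal on each of the 4 arrays at 1 week for the 12 largest rises (left) and 12 largest falls (right) that held on each FOXO array, among genes whose control level was within 1 between the ages. These genes were chosen as called on each FOXO array alone, and no FOXO array overlaps a control array in any of them. The FOXO arrays are farthest apart for Acp63F, 5.37 and 7.09.

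Pathways of FOXO and of protein quality control showed few changes that held, and a missed threshold does not show that a gene did not differ. Of 18 measured genes of the insulin and TOR pathway 0 passed in either direction with both FOXO arrays, where 0.568% of all genes were higher and 5.4% lower. raptor, a subunit of TOR complex 1, read 5.18 and 5.22 in FOXO hearts, against 4.61 and 4.44 in control hearts (0.67 ± 0.16), a difference that missed the threshold (adjusted p = 0.0744). Of 24 measured FOXO targets known from other work, 0 rose and 1 fell with both arrays, and 0 held on each. The gene that fell was daw, an activin ligand that FOXO represses in fly muscle. It read 10.51 and 10.75 in FOXO hearts, against 11.30 and 11.32 in control hearts (-0.68 ± 0.14, adjusted p = 0.0459), and on replicate 2 alone its adjusted p was 0.0687. The daw call was lost under 11 of the alternatives, with centred medians, the replicate block and arrayWeights among them (largest adjusted p = 0.301). The targets had a median difference of -0.24 on replicate 1 and 0.03 on replicate 2, where all genes had -0.05 and 0.03. Some members of these lists, among them Thor, were not analysed here.

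None of the 27 measured proteasome subunits passed with both arrays or on either FOXO array alone, and their medians of 12.30 and 12.42 in FOXO hearts stood beside 12.47 and 12.40 in control hearts. Of 28 genes of autophagy and the lysosome 0 rose and 1 fell, Atg8b of the testis. Of 30 chaperones 0 rose and 1 fell, Hsp60B of the testis. Hsp60A, the somatic mitochondrial chaperone, read 12.40 and 11.70 in FOXO hearts, against 11.06 and 11.24 in control hearts, a difference of 0.90 ± 0.25 that missed the threshold (adjusted p = 0.123) and was called higher on replicate 1 alone (adjusted p = 0.00143). Of 23 genes for ubiquitin and its ligases and 21 of endoplasmic reticulum stress 0 passed with both arrays. By that test 0.568% of all genes were higher and 5.4% lower. The centring given above raises these list medians as well.

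Few heart and energy genes passed the test with both arrays, where 0.568% of all genes were higher and 5.4% lower. Of 23 heart muscle genes 0 passed with both arrays. On replicate 1, 17 of these 23 lay below both control arrays, where 5742 of all 11982 genes did. On replicate 2, 13 of the 23 did, where 4475 of all genes did. These counts are given with no test. Act79B, an actin of tubular muscles, was lower on each FOXO array alone, with 8.37 and 6.53 in FOXO hearts, against 8.83 and 8.91 in control hearts, but not with both together (-1.42 ± 0.51, adjusted p = 0.25). Of 13 cardiac regulators, 24 genes of calcium handling and ion channels and 19 of the extracellular matrix, 0 passed with both arrays. In oxidative phosphorylation 1 of 53 fell: ND-B12, a subunit of respiratory complex I, read 11.41 and 11.44 in FOXO hearts, against 12.39 and 12.26 in control hearts (-0.90 ± 0.13, adjusted p = 0.00822). Its neighbour on arm 2R with no protein-coding gene between them, Rae1, an mRNA export factor, fell by 1.19 ± 0.13 (adjusted p = 0.00289). The call for ND-B12 was lost without either control array (largest adjusted p = 0.112 over all alternatives). The 68 mitochondrial ribosome genes had a median difference of 0.31 on replicate 1, where 16 were called higher (16.5% of all genes were), and of -0.01 on replicate 2, where 0 were.

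Detoxification genes fell in single members. GstD10, a glutathione S-transferase, read 9.51 and 9.86 in FOXO hearts, against 10.90 and 11.04 in control hearts (-1.28 ± 0.17, adjusted p = 0.00682), the only one of 44 antioxidant and detoxification genes that passed. Leaving out either of the control 1 week arrays ended the GstD10 call (adjusted p up to 0.0854 over all alternatives). Of 74 cytochrome P450 genes 2 fell and 0 rose, where 5.4% of all genes fell and 0.568% rose. Cyp6a17 read 3.89 and 3.47 in FOXO hearts, against 6.41 and 6.61 in control hearts (-2.83 ± 0.21, adjusted p = 0.000694), and Cyp4ad1 had -0.89 ± 0.16 (adjusted p = 0.0275). The Cyp4ad1 call was lost under 10 of the alternatives, median centring and leaving out any 1 of the 6 arrays other than FOXO 1 week among them (largest adjusted p = 0.229). Replicate 1 alone called 43 of the 74 lower, where 20.4% of all genes were, and replicate 2 alone called 2. Their median difference was -0.75 on replicate 1 and 0.01 on replicate 2, so the family median was lower on 1 array only.

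Neuropeptides and their receptors gave 1 rise and 3 falls among 28 genes on that list, each of which held on each array, where 0.467% of all genes were higher and 5.05% lower by this rule. Ir76a, an ionotropic receptor that the list also holds, is 1 of the 3 falls. TkR99D, a tachykinin receptor, fell by 1.26 ± 0.16 (adjusted p = 0.00576), with 7.63 and 7.43 in FOXO hearts and 8.92 and 8.67 in control hearts. Dh44, a diuretic hormone related to corticotropin-releasing factor, read 3.61 and 3.40 in FOXO hearts, against 4.75 and 5.28 in control hearts (-1.51 ± 0.24, adjusted p = 0.0134). All of these Dh44 values lie below the array medians, where signals are dim. ETH, the hormone that triggers ecdysis, read 8.71 and 8.82 in FOXO hearts, against 7.69 and 7.94 in control hearts (0.95 ± 0.16, adjusted p = 0.0174). TkR99D lost its call without control 1 week replicate 1, Dh44 without control 1 week replicate 2 and ETH without either. Obp44a, an odorant-binding protein, fell by 2.13 ± 0.26 (adjusted p = 0.00462), and Jon44E, a serine protease of the gut, by 1.47 ± 0.14 (adjusted p = 0.00164), each 1 fall in its list of 51 and of 25. The Obp44a call was lost without control 1 week replicate 2. The other lists measured, of the citric acid cycle, glycolysis, lipid handling, immune signalling, cuticle, spermatocyte regulators, eggshell, hemocytes, nephrocytes, neurons, and trachea, had 0 genes that passed with both arrays. With both arrays 0.568% of all genes were higher and 5.4% lower.

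**Figure D4:**
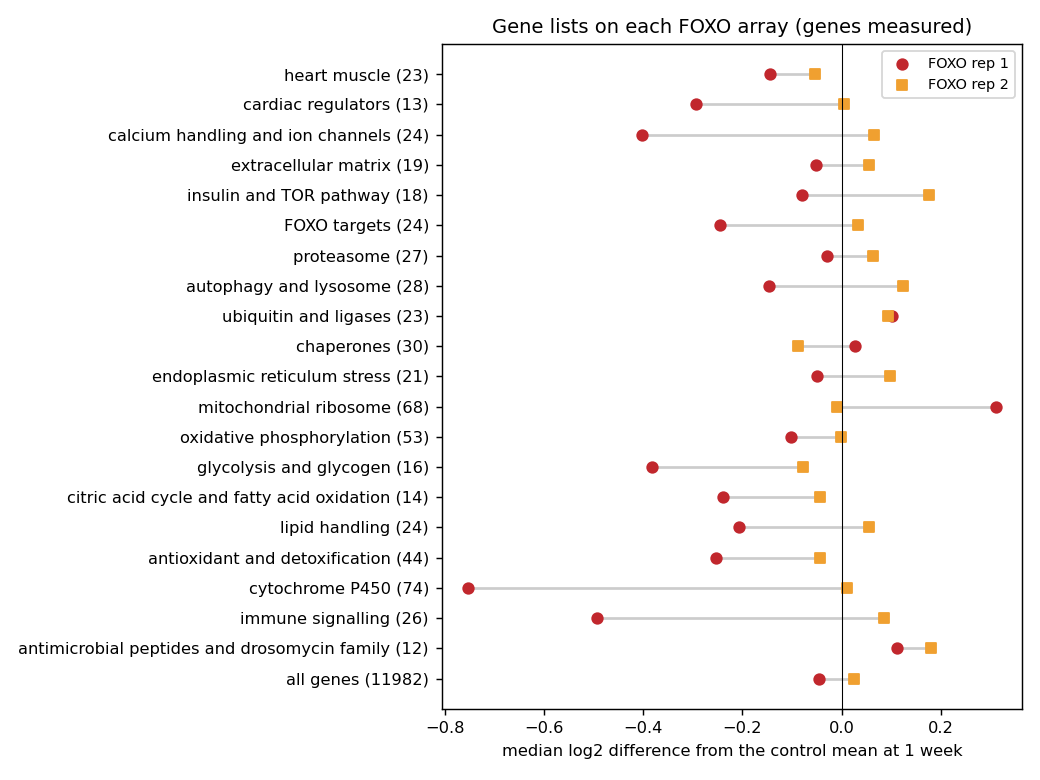
Median log2 difference from the control mean at 1 week of 20 gene lists and of all genes, on FOXO replicate 1 (circles) and FOXO replicate 2 (squares), with the number of genes measured in brackets. Replicate 1 lies lowest for cytochrome P450 genes (-0.75) and highest for mitochondrial ribosome genes (0.31), while replicate 2 stays between -0.1 and 0.2 in every list shown.

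Between the FOXO arrays themselves, the genes that were highest on replicate 1 are known from the egg and from female tissues. gnu, which starts translation at egg activation, read 12.75 on replicate 1 and 4.07 on replicate 2, against 3.89 and 3.87 in control hearts. osk, which patterns the egg, read 12.41 and 4.32 on the FOXO arrays, against 4.03 and 3.52 on the control arrays. BigH1, the linker histone of the germline and early embryo, read 12.13 and 4.12, against 3.90 and 3.87. CG14545, Fad2, rpk, Pxt and Yp3 complete the 8 genes with the widest gap in this direction, which is given with no test. Of the 8 genes with the widest gap in the other direction, 3 encode immune peptides. edin, a secreted peptide induced by infection, read 6.69 and 12.12 on the FOXO arrays, against 8.25 and 8.05 on the control arrays. BomBc3, of the bomanin family of immune peptides, read 9.23 and 12.08, against 10.24 and 9.82, and DptB, an antibacterial peptide, 9.78 and 12.57, against 11.96 and 11.86. CG10764, CG4757, CG10553, nolo and lncRNA:CR33942 are the other 5 with the widest gap. On edin the control arrays lie between the FOXO arrays, so that its change has opposite signs on each, -1.46 and 3.97.

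The comparison at 5 weeks uses other arrays, though 1 shared estimate of the spread. Those arrays also differ from the arrays at 1 week in transcripts of sex and of the germline. At 5 weeks the 5 female-specific genes had medians of 13.33 and 13.19 in FOXO, against 13.03 and 13.04 in control. The 46 late spermatogenesis genes had medians of 8.61 and 8.46 in FOXO, against 4.80 and 4.67 in control. Which part such transcripts have in any difference between the ages was not tested. Of the 56 genes higher on each FOXO array at 1 week, 6 were also higher and 9 lower in FOXO hearts at 5 weeks, where 10.3% of all genes were higher and 3.21% lower. Of the 605 lower genes 25 were also lower and 506 higher. The difference of the effects between ages was called higher at 5 weeks for 10.2% of all genes and lower for 2.25%. The 6 and the 25 were 0.486% of the 1234 genes higher and 6.49% of the 385 lower at 5 weeks. Among genes with a control level within 1 between ages, 18 of 92 falls were also lower at 5 weeks (19.6%) and 30 were higher (32.6%).

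Genes that moved the same way at both ages, picked after their values were seen, include Ir76a, which at 5 weeks read 4.79 and 5.19 in FOXO hearts, against 8.78 and 8.94 in control hearts (-3.87 ± 0.31, adjusted p = 0.000165). Rnf11, related to a mammalian regulator of ubiquitin ligases, read 10.10 and 11.33 in FOXO hearts at 1 week, against 12.89 and 12.80 in control hearts (-2.13 ± 0.36, adjusted p = 0.0188). At 5 weeks it read 10.20 and 10.03 in FOXO hearts, against 12.47 and 12.41 in control hearts (-2.32 ± 0.36, adjusted p = 0.00541). All 4 FOXO arrays thus lay below all 4 control arrays for both genes. TkR99D (-1.66 ± 0.16 at 5 weeks), Dh44 (-2.13 ± 0.24), GstD10 (-0.74 ± 0.17), Cyp6a17 (-1.46 ± 0.21), Gr63a and Jon44E were also lower at both ages. The 6 rises at both ages were CG33640 (1.72 ± 0.26 at 5 weeks), CG14621 (0.82 ± 0.17), HisT (0.69 ± 0.15), CG5056 (0.57 ± 0.13), GILT3 and Ect3. GILT3, of the family of lysosomal thiol reductases, read 10.86 and 10.29 in FOXO hearts at 1 week, against 9.21 and 9.13 in control hearts (1.40 ± 0.21, adjusted p = 0.0101), and had 1.19 ± 0.21 at 5 weeks. Ect3, a predicted beta-galactosidase, read 9.65 and 9.45 in FOXO hearts, against 8.48 and 8.52 in control hearts (1.05 ± 0.15, adjusted p = 0.0101), and had 1.07 ± 0.15 at 5 weeks.

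**Figure D5:**
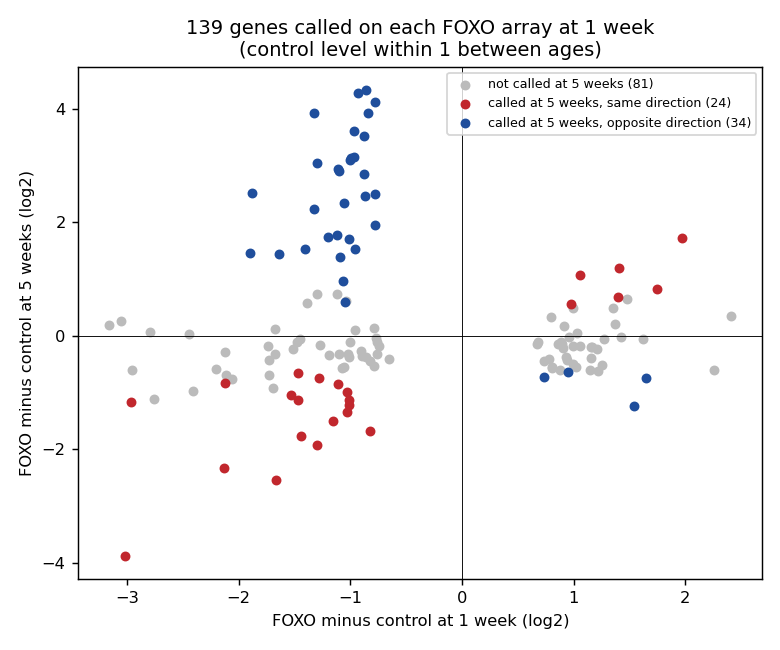
Log2 difference of FOXO minus control at 1 week (horizontal) and at 5 weeks (vertical) for the 139 genes that held on each FOXO array at 1 week and whose control level was within 1 between the ages. At 5 weeks 24 were called in the same direction, 34 in the opposite direction and 81 were not called.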

How the data were processed

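Hearts of 4 groups with 2 arrays each were measured on Affymetrix arrays, per the labels' protocols. The authors deposited 1 log2 signal per probe set, already summarised and normalised between arrays. The method of that step is unknown here, and limma is named without a version in the submitters' processing notes. No scanner files were used, so the number of arrays limits the precision. Probe sets were named from the platform annotation updated through RefSeq: 13647 had 1 symbol, 402 several and 4720 none. Of 1109 list symbols 927 were measured, and the 2 male dosage compensation RNAs were not analysed here.

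A limma 3.58.1 model (R 4.3.3) with 1 mean per group was fitted to all 8 arrays (4 residual degrees of freedom), and again without each FOXO 1 week array (3). The test was two-sided with Benjamini-Hochberg adjustment, and was tested on simulated data. Some genes were named from those called with both FOXO arrays and on each alone. They were the 12 largest rises and falls by the smaller change, and the same among genes with a control level within 1 between ages. Called or not, foxo, up to 4 members per list and the 8 widest gaps between FOXO arrays each way were named too. The members, lists and tests were chosen with earlier results of these data known. Alternatives were quantile normalization, centred medians, no dim probe sets (lowest 40%), trend and robust eBayes, a replicate block, arrayWeights, genes in place of probe sets, only the 4 arrays compared, a fold over 2 as well, and each array left out. Of the 186 named genes, 160 remained without the dim probe sets, so the others could not be tested there.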

Additional observations from a re-analysis of the deposited data

Results flagged for a closer look

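The FOXO effect differed between the ages for 39 named genes that held on each FOXO array at 1 week. The test was the interaction contrast of limma, effect at 5 weeks minus effect at 1 week, with adjusted p under 0.05. Over all genes it was called higher at 5 weeks for 10.2% and lower for 2.25%. Genes named as the largest changes were chosen by their difference at 1 week, which this contrast subtracts. The signs below are thus in part set by that choice. Among rises at 1 week the difference was negative: -2.86 for BCL7-like, -2.78 for CG14406, -2.55 for Drsl4, -2.43 for tw, -2.38 for CG43759, -1.67 for EbpII, -1.58 for ETH, -1.44 for chas and -1.16 for CG3823. tw, CG14406, CG43759 and ETH were called lower in FOXO hearts at 5 weeks.

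Among falls at 1 week the difference was positive, and it was widest for genes of sperm formation and those that share their pattern. It was 10.4 for CG14294, 9.09 for w-cup, 8.99 for CG17666, 8.91 for CG32161, 8.53 for fest, 8.10 for CG31204, 7.94 for CG44433, 7.81 for c-cup, 7.80 for CG12126, 7.79 for CG4073, 7.71 for CG13700, 7.53 for Pif2 and 7.18 for Mst84Dc. It was 6.90 for CG33125, 6.49 for Atg8b, 6.48 for Hsp60B, 6.22 for CG32106 and 5.54 for hale.

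For the remaining falls the difference was smaller. It was 3.34 for CG13215, 3.32 for CG11286, 2.85 for Listericin, 2.49 for CG12209, 2.36 for ppk15, 2.29 for Obp44a, 1.83 for CG34232, 1.80 for CG18585, 1.62 for CG31296, 1.44 for Dlip3, 1.37 for Cyp6a17 and 1.29 for Gr63a. CG13215 and Listericin read between 9.94 and 12.14 on all 4 arrays at 5 weeks.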

How the results depend on the processing

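The 813 probe sets called with both FOXO arrays became 274 (2 higher) when only the 4 arrays of these groups were fitted, and ranged from 400 to 5377 with 1 array left out: 400 lacking control 1 week replicate 1, 429 lacking control 1 week replicate 2, and 5377 lacking FOXO 1 week replicate 2. Centring the array medians changed the share that was higher to 20.5%, against 10.7%. For replicate 1 alone a fold over 2 as well left 2925 of 5377, and leaving out 1 array gave 3823 to 5824. Replicate 2 alone gave 1055, and 639 to 1172 with 1 array left out, with 639 lacking control 1 week replicate 1 and 681 lacking replicate 2. Centring gave 49.4% higher there, against 25.7%. The count on each FOXO array, 834, was 550 to 909 with 1 array left out, lowest without control 1 week replicate 1. Centring gave 891 with 27.9% higher, against 12.2%, and control 5 weeks as the comparison gave 681. Of the named genes, 4 were called in opposite directions depending on which FOXO 1 week array was left out: Yp1 had -1.89 and Yp3 -1.09 without replicate 1, against 5.01 and 6.89 without replicate 2, and edin had -1.46 and BomBc3 -0.80 without replicate 2, against 3.97 and 2.05 without replicate 1. Centring gave 56.8% higher for replicate 1 alone, against 46.1%. The replicate block gave 743 probe sets. With only the 4 arrays compared, 32 of the 57 named genes called lost their call. Ir76a, Dlip3, CG12209, Hsp60B and w-cup were among them. The numbers share no source in the labels, and the deviations of same-numbered arrays of FOXO and control at 1 week correlated at 0.0133.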

Other observations

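By chromosome arm, genes that fell on each FOXO array were less frequent on X than the genes tested. Of the genes with a control level more than 1 apart between ages 8.8% lay on X, and of those within 1 8.7%, while 15.7% of all placed genes did. Of the 47 rises with a control level within 1, 27.7% lay on X and 12.8% on 3R, where 25.0% of all placed genes lie. These shares are given with no test.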
